A study of Saccharomyces cerevisiae with 9 samples.

Results

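The genes described here are reading frames of Saccharomyces cerevisiae that carried no name of their own in the deposited InP/ZnS table and whose level differed there between InP/ZnS-exposed and untreated cells. An entry was taken if its gene field held only a systematic name starting with Y, if it had been tested, was alone at its locus, reached 10 FPKM in either condition and had an absolute log2 ratio of InP/ZnS over untreated of at least 0.8. FPKM is the number of sequenced fragments scaled to transcript length and to library size. Of 6367 tested entries, 1450 were unnamed, 822 of these were alone at their locus and 717 reached the floor. The ratio left 157, and 8 of 11 names set aside by the rule were among them, so 149 reading frames remained, 96 higher and 53 lower with InP/ZnS. At the same ratio and floor, 7.98% of all tested entries were higher and 5.25% lower. The members were thus chosen by the measured InP/ZnS ratio itself, so every InP/ZnS value below is a description of the choice and carries no test.

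The series set cells exposed to InP/ZnS quantum dots (100 µg/mL per the design text, 3 libraries) and cells exposed to CdSe/ZnS quantum dots (10 µg/mL, 3 libraries) against untreated cells (3 libraries). Quantum dots are semiconductor nanocrystals, here with a core of indium phosphide or cadmium selenide under a zinc sulfide shell. All 9 libraries came from strain S288C in glucose medium, at an optical density of 0.3 to 0.6 and 30 °C, with 6 h of exposure. The treatment label of every sample states the InP/ZnS dose in mg/mL, so the unit of that dose is uncertain, and the doses of the dots differ. The labels do not say whether libraries of a group came from separate cultures, so the authors' tests may measure technical spread only. The values were 1 FPKM per entry and condition over the pooled libraries. No single library is shown, the depth is unknown, and log2 ratios are given with the error that follows from the authors' test statistic, called the implied standard error (median 0.246 over the whole table, log2 scale). These are values of whole cultures, in which fewer cells with a transcript and less of it per cell cannot be told apart.

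Systematic names such as YNL195C give the chromosome, the arm, the order from the centromere and the strand of a reading frame. Frames keep such a name alone until a function has been published, and many stay so because they are short, are little expressed in standard medium or have no phenotype when deleted. In budding yeast a sizeable share of poorly studied genes answers to environmental stress, and the stress response element, bound by the activators Msn2 and Msn4, is a common letter pattern before such genes.

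RefSeq annotation of assembly R64 held 136 of the 149 members, 135 of them with the start and end of the deposited table. In RefSeq, 48 carried a gene symbol that the deposited table did not use, 56 had a named product, 79 were uncharacterized, 1 was a pseudogene and 13 had no entry. Entries ran over 93 to 4038 bp with a median of 639 bp, against 741 bp in the list of 822 unnamed frames and 1188 bp over all tested entries alone at their locus. No member overlapped another entry of the table, but the rule had kept only entries alone at their locus, so this is no finding. Another RefSeq gene overlapped 2 members (YJL047C-A and YPL247C). Whether reads were assigned by strand is not given in the sources used here, which leaves the values of those 2 uncertain.

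Promoter windows of 300 bases, from 250 before to 50 after the start of the coding sequence, were read from R64 for the members in RefSeq (88 higher, 47 lower) and searched on both strands for 12 letter patterns. The windows printed here, credited to RefSeq assembly R64, show the pattern with the largest excess in percentage points over all promoters among the higher members, AGGGG or CCCCT on the other strand, in capitals. Shown are the members with the largest absolute ratios among those with q under 0.05 for InP/ZnS in the authors' deposited table whose window held at least 2 copies and touched no other gene, 3 higher and 2 lower, and YJL144W, whose ratios had opposite signs with the different dots. They were chosen after the counts were known.

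The higher members were YLR177W (chrXII:510804-511103, plus strand), a frame of unknown function with the paralog PSP1, YPL247C (chrXVI:84147-84446, minus strand), which resembles a WD-repeat protein of petunia, and YKL091C (chrXI:270601-270900, minus strand), a lipid-binding relative of Sec14. Their copies began 178, 161 and 138 bases before the start in YLR177W, 151 and 144 in YPL247C and 156 and 143 in YKL091C.
YLR177W: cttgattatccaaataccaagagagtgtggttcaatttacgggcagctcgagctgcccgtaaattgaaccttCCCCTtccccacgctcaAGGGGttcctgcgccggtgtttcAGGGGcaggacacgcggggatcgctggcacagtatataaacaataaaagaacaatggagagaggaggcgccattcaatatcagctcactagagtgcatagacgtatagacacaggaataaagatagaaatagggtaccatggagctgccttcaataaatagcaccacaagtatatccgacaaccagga
YPL247C: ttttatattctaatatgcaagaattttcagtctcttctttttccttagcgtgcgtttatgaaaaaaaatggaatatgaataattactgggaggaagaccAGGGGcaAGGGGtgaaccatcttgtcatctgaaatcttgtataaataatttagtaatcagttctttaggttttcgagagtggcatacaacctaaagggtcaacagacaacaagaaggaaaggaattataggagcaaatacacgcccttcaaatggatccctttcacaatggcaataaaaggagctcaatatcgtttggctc
YKL091C: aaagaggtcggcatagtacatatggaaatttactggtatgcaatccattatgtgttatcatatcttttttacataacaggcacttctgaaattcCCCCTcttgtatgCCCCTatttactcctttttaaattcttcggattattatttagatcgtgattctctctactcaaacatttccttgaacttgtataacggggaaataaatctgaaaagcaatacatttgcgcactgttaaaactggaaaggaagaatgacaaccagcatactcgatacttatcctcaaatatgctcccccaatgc

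The lower members were YMR084W (chrXIII:436378-436677, plus strand), part of a split frame related to the amidotransferase Gfa1, and YDR034W-B (chrIV:521064-521363, plus strand), which encodes the plasma membrane protein Cpp3. Their copies began 201 and 135 bases before the start in YMR084W and 214, 110 and 101 bases before it in YDR034W-B.
YMR084W: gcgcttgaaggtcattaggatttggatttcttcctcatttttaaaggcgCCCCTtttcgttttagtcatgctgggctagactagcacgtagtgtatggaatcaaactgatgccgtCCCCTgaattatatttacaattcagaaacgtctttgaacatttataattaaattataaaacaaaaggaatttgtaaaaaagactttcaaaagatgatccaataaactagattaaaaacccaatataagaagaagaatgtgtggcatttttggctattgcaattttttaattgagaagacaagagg
YDR034W-B: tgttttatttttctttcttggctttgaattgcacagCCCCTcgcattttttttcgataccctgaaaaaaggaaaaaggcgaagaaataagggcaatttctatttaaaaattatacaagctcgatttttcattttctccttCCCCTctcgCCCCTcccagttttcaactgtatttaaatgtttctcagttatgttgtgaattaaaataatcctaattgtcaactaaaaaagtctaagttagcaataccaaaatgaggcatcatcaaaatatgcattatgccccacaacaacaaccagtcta

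YJL144W (chrX:146109-146408, plus strand) encodes Roq1, which redirects the ubiquitin ligase Ubr1 towards misfolded proteins under stress. Its window held a single copy, 167 bases before the start.
YJL144W: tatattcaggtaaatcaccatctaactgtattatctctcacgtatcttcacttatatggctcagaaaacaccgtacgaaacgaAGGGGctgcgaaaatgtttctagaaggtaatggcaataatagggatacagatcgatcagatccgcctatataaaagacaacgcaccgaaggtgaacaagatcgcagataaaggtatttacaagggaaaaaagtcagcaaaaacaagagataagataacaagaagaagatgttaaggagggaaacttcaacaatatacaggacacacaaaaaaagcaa

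All shares here include windows that touch other genes, and only 73 of the higher and 37 of the lower windows were free of them. At least 1 AGGGG on either strand stood in 37 of 88 higher members (42.0%) and 16 of 47 lower members (34.0%), against 27.4% of the unnamed frames in the list and 21.6% of all 6001 promoters. At least 2 copies stood in 10.2% of the higher and 8.51% of the lower members, against 4.71% of the list and 2.93% of all promoters. The pattern was thus more frequent on both sides than in the list, and it lies inside no other pattern searched, although GCGGGG (Mig1) shares 4 letters with it and can overlap it. The core of the heat shock element, GAANNTTC, stood in 11.4% of the higher and 23.4% of the lower members and 11.8% of all promoters. TTACTAA (Yap1) stood in 14.8%, 8.51% and 7.45%, and GATAAG (Gln3 and related factors) in 15.9%, 2.13% and 14.7%. The remaining patterns, besides GCGGGG, were TGACTCA (Gcn4), GGTGGCA (Rpn4 core), CCGCGG (Pdr1 and Pdr3), TGCACCC (Aft1), ATTGTT (Rox1 core), GATGAG (PAC core) and TATAAA (a core promoter element), whose shares are in the bar chart of matches. Median GC content was 36% in the higher members, 37% in the lower ones and 36% over all promoters. A match is a run of letters, not a shown binding site, and none of these shares was tested.

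**Figure D1:**
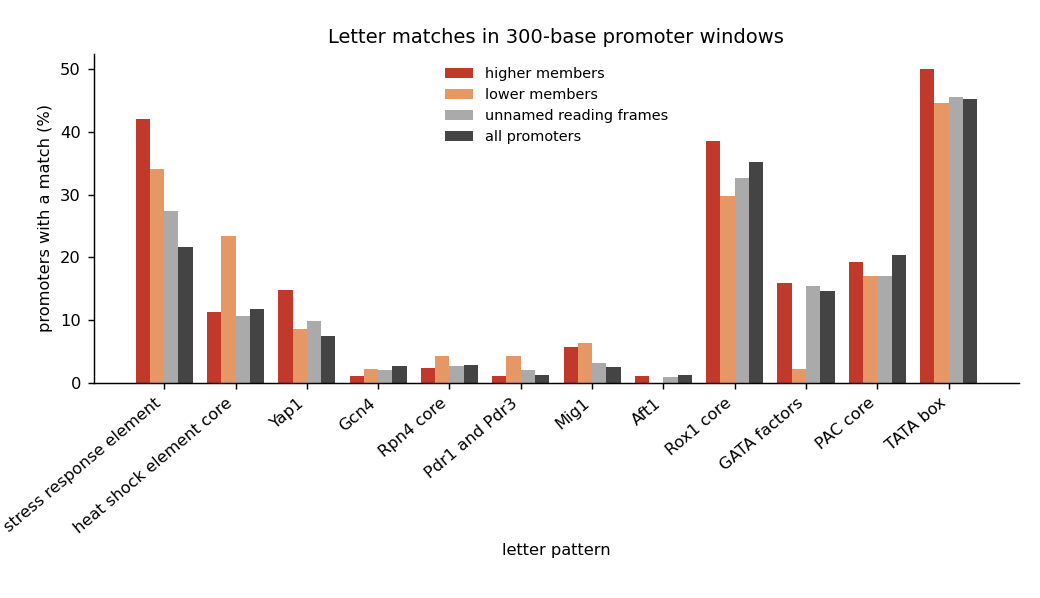
Share of 300-base promoter windows (percent, vertical axis) with at least 1 match to each letter pattern (horizontal axis) in 88 higher members, 47 lower members, the list of unnamed frames and all 6001 promoters. The stress response element stood in 42.0% of the higher and 34.0% of the lower members, against 21.6% of all promoters.

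With InP/ZnS the higher members stood at 11.7 to 9809 FPKM with a median of 67.3, against 3.51 to 5412 with a median of 25.0 in untreated cells. Their ratios ran from 1.77-fold to 7.72-fold, with a median log2 ratio of 1.21, or 1.15 relative to the median of all tested entries (0.07). The lower members stood at 1.49 to 1636 FPKM with a median of 50.7 with InP/ZnS, against 10.0 to 5196 with a median of 110 in untreated cells, and their median log2 ratio was -1.16. The authors' deposited table gave q under 0.05 to 80 of the higher and 35 of the lower members, against 23.9% of all tested entries in the higher and 17.2% in the lower direction. Nothing is read from these counts, because the same ratio chose the members.

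**Figure D2:**
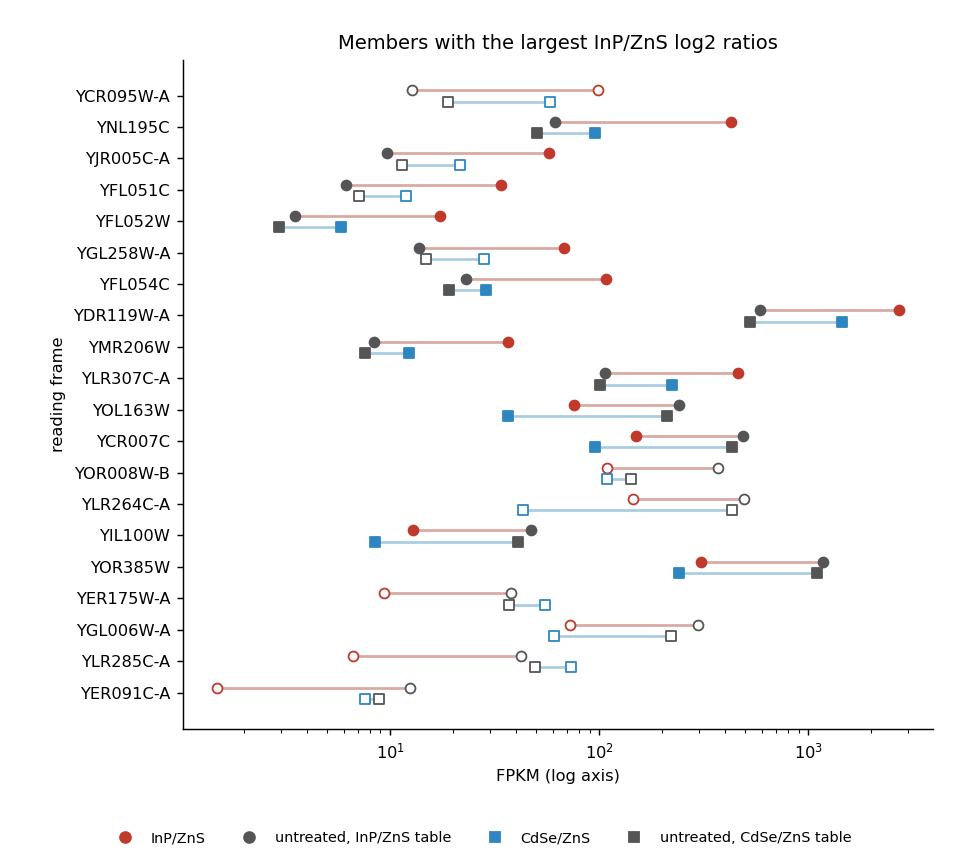
FPKM (log axis) of the 10 higher and 10 lower members with the largest absolute InP/ZnS log2 ratios: InP/ZnS (red circles) with untreated cells of the same table (grey circles), and CdSe/ZnS (blue squares) with untreated cells of that table (grey squares). Filled symbols mark q under 0.05 in the authors' deposited table. YNL195C lies at 425 FPKM with InP/ZnS against 61.3 untreated, and the red and grey circles of the lower members stand in the reverse order.

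Mitochondrial proteins were named in the RefSeq notes of 13 of 89 annotated higher members (14.6%) and 1 of 47 annotated lower members (2.13%). The words for this and the other functional groups were chosen after the members were known. Of the annotated unnamed frames in the list, 12.8% carry the same words, so the share of the higher members is near that of the list. YDR119W-A encodes Cox26, a small subunit of cytochrome c oxidase that helps to assemble respiratory supercomplexes. It stood at 2712 FPKM with InP/ZnS against 586 in untreated cells (log2 ratio 2.21, implied standard error 0.26 from the authors' deposited table), and at 1450 with CdSe/ZnS against 525 untreated. YNL195C, found in purified mitochondria and a paralog of HBT1, had the largest ratio of any member with q under 0.05 in the authors' deposited table, 425 FPKM with InP/ZnS against 61.3 untreated (log2 2.79, implied standard error 0.25). YLR307C-A (Dpa10, a putative mitochondrial protein) had 462 FPKM with InP/ZnS against 106 untreated, and YLR164W (Shh4, an alternate succinate dehydrogenase subunit) 223 against 121. YPL109C, which encodes the inner membrane protein Cqd1, had 29.0 FPKM with InP/ZnS against 12.6 untreated, and 21.6 with CdSe/ZnS against 11.1. YPL168W (Mrx4, which associates with mitochondrial ribosomes) had 35.0 against 17.3 with InP/ZnS and 21.9 against 16.3 with CdSe/ZnS. YJL133C-A, which encodes the putative mitochondrial protein Dpi8, had the highest FPKM of any member in the InP/ZnS table, 9809 with InP/ZnS against 5412 untreated. The only lower member of the group, YNR040W, encodes Mrx15, a mitoribosome receptor of the inner membrane, and had 13.8 FPKM with InP/ZnS against 29.2 untreated.

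Transcription regulators among the higher members included YFL052W and YGR067C. YFL052W encodes Znf1, a zinc cluster factor that promotes respiratory growth, and stood at 17.4 FPKM with InP/ZnS against 3.51 untreated, the lowest untreated level of all higher members (log2 2.31, implied standard error 0.36 from the authors' deposited table). YGR067C, whose zinc finger resembles that of the respiratory regulator Adr1, had 20.2 FPKM against 5.56. Both are placed next to another higher member. YFL051C, a frame of unknown function 428 bp from YFL052W, had 33.8 FPKM with InP/ZnS against 6.17 untreated, and YGR066C, 572 bp from YGR067C, had 72.9 against 29.1. YGR066C encodes Gid10, which recognises proteins for degradation by the GID ubiquitin ligase, and YLR149C encodes Gid11, another substrate receptor of that ligase that acts on enzymes of gluconeogenesis. YLR149C had 140 FPKM with InP/ZnS against 48.7 untreated, and 59.9 with CdSe/ZnS against 42.1.

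Ubiquitin or protein degradation was named in the notes of 8 of 89 annotated higher members (8.99%) and 0 of 47 lower members. The share of the list was 3.65%, and the difference was not tested. Besides the GID receptors and Roq1 these were YNR068C, YBR074W, YKL100C, YIR014W and YKR017C. YNR068C, a readthrough part of the ubiquitin-ligase adaptor Bul3, had 440 FPKM with InP/ZnS against 192 untreated. YBR074W (Pff1, a vacuolar membrane protease) had 82.7 against 40.9, and YKL100C (Ypf1, an intramembrane protease of the endoplasmic reticulum) 73.9 against 36.8. YIR014W (Vld1) directs the Dsc ubiquitin ligase to the vacuole and had 51.3 against 26.4, and YKR017C (Hel1, a ligase for excess histones) had 27.4 against 14.8.

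Oxidoreductases accounted for 7 of 89 annotated higher members (7.87%) and 0 of 47 lower members. The share of the list was 4.69%, and the difference was not tested. Besides Cox26 and Shh4 they were YML131W, YCR102C, YLR460C, YKL071W and YJR149W. YML131W resembles medium-chain dehydrogenases and stood at 192 FPKM with InP/ZnS against 58.6 untreated (log2 1.72, implied standard error 0.23 from the authors' deposited table). YCR102C and YLR460C, which resemble quinone oxidoreductases, had 24.4 against 7.84 and 63.0 against 24.4. YKL071W (Osi1, an aldehyde reductase) had 27.4 FPKM with InP/ZnS against 12.4 untreated, and YJR149W, a putative nitronate monooxygenase, 59.5 against 31.7. With CdSe/ZnS the authors' deposited table called 5 of these 7 higher and 0 lower, against 9.59% and 43.6% of all tested entries and against 42.7% of the 96 higher members called higher. Both comparisons share the untreated cells. YML131W had 93.0 FPKM with CdSe/ZnS against 53.1 untreated.

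Some members carry notes on iron or zinc. No count was made of such notes, so the members named here stand for no group. The Aft1 pattern TGCACCC stood in 1 of 88 higher windows (1.14%) and 0 of 47 lower windows, against 1.30% of all promoters. YJR005C-A encodes Lso1, a small protein of iron deprivation controlled by the iron regulator Aft1, and had 57.8 FPKM with InP/ZnS against 9.63 untreated (log2 2.59). It is 282 bp long, and its implied standard error in the authors' deposited table was 0.77, against a median of 0.242 for members over 900 bp. YOR387C, which RefSeq describes as Aft1-regulated and inducible by zinc depletion, had 34.5 FPKM against 9.35 with InP/ZnS and 14.3 against 7.85 with CdSe/ZnS. YJL132W, a possible target of the zinc regulator Zap1, had 20.4 against 9.01 with InP/ZnS and 14.6 against 8.06 with CdSe/ZnS. On the lower side, YNR062C (Pul3, a putative transporter of the iron siderophore pulcherrimin) had 6.10 FPKM with InP/ZnS against 12.9 untreated.

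Among membrane and lipid proteins, YFL054C encodes the channel Aqy3, through which glycerol can pass, and had 108 FPKM with InP/ZnS against 23.1 untreated (log2 2.23, implied standard error 0.24 from the authors' deposited table). YGL010W (Mpo1, a dioxygenase of sphingolipid breakdown) had 86.6 FPKM against 33.7, and YMR210W (Mgl2, a lipase) 102 against 44.6. YHR080C (Lam4), the longest member, moves sterols between membranes and had 40.5 against 21.1. YGR130C, a component of the eisosome, a plasma membrane furrow, had 202 against 91.6, and YGR168C (Pex35, a regulator of peroxisome number) 26.4 against 13.9. YOL047C encodes Lds2, a spore wall assembly protein on lipid droplets, and had 107 FPKM with InP/ZnS against 34.3 untreated. YKL151C (Nnr2), which repairs damaged NADH, had 492 against 232; RefSeq notes stress response elements in its promoter, and the window searched here held 0 copies.

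Duplicate genes can be compared directly. YMR206W and YNR014W are paralogs from the whole-genome duplication and were both higher with InP/ZnS, but at different levels. YMR206W had 36.7 FPKM with InP/ZnS against 8.38 untreated (log2 2.13), and YNR014W, heat-inducible according to RefSeq, had 458 against 222 (log2 1.04). With CdSe/ZnS, YMR206W had 12.3 against 7.61 FPKM (q 0.0115 in the authors' deposited table) and YNR014W 180 against 196 (q 0.512). In all, 9 higher and 7 lower members were noted as duplicates of this kind, which is 10.1% and 14.9% against 12.3% of the list. Stress was named in the notes of 10 of 89 higher members (11.2%) and 8 of 47 lower members (17.0%), against 10.7% of the list. The stress share of the higher members was thus near that of the list. The vacuole was named for 9 higher and 5 lower members and 69 of 767 in the list. The endoplasmic reticulum had 10.1%, 12.8% and 9.78%, and transcription 4.49%, 2.13% and 3.13%. None of these differences was tested.

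Uncharacterized products made up 55 of the 96 higher members. YMR196W, a long cytoplasmic protein, had 148 FPKM with InP/ZnS against 53.0 untreated, and YIR016W, under the meiotic regulator Ume6, 385 against 137. YJR115W, a paralog of ECM13, had 100 FPKM against 24.1 (log2 2.06), and YMR103C had 416 against 158. YOL153C, a pseudogene with in-frame stops in S288C, had 160 FPKM with InP/ZnS against 55.0 untreated, so a transcript without an intact frame was among the higher members. YGL258W-A, a frame of unknown function, had 67.8 FPKM against 13.7 (log2 2.31, implied standard error 0.83, q 0.00299 in the authors' deposited table).

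Several of the most abundant lower members encode proteins of the cell surface. Other abundant ones have uncharacterized products, such as YOL038C-A (2904 FPKM untreated in the InP/ZnS table), YOR385W (1175) and YMR315W-A (1048). Membrane or cell surface was in the notes of 17 of 47 annotated lower members (36.2%), against 21 of 89 higher members (23.6%) and 19.0% of the list. These words also cover internal membranes, such as that of YNR040W in the mitochondrion, so the shares do not measure cell surface proteins. YMR122W-A, described next, is not among the 17. YMR122W-A (Ncw1), which RefSeq places in the cytoplasm and endoplasmic reticulum, had the highest untreated level of the lower members, 1636 FPKM with InP/ZnS against 5196 untreated (log2 -1.67, implied standard error 0.24 from the authors' deposited table), and 966 with CdSe/ZnS against 4309. Cpp1 and Cpp3 are small palmitoylated plasma membrane proteins placed at the daughter cell. YDR034W-B (Cpp3) had 1282 FPKM with InP/ZnS against 3025 untreated and 608 with CdSe/ZnS against 2466, and YBR016W (Cpp1) had 1392 against 2431 and 598 against 1941. YNL190W, a cell wall hydrophilin needed to survive drying, had 1026 FPKM with InP/ZnS against 1798 untreated and 809 with CdSe/ZnS against 1551. YJL171C (Toh1, anchored in the cell wall) had 223 against 447 with InP/ZnS and 289 against 388 with CdSe/ZnS, where its log2 ratio relative to the median of all entries was only -0.08. YCR007C encodes the membrane protein Dfp3 of the DUP240 family and had 149 FPKM with InP/ZnS against 486 untreated (log2 -1.70).

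The next lower members are named for their annotated roles, were chosen after their values were seen and form no list. YPL014W encodes Cip1, a stress-activated inhibitor of the G1 cyclin-dependent kinase, and had 65.0 FPKM with InP/ZnS against 187 untreated (log2 -1.53, implied standard error 0.22 from the authors' deposited table). YGR250C (Rie1), which restrains the G1 cyclin mRNA CLN3, had 126 against 268. YDL233W (Mfg1, a regulator of filamentous growth) had 65.6 against 115, and YER130C (Com2, a transcription factor at the meiotic gene IME1) 43.2 against 133. YHR097C (Pal2, of clathrin-mediated endocytosis) had 355 FPKM with InP/ZnS against 893 untreated and 139 with CdSe/ZnS against 731. YGL242C (Ank1), an ankyrin-repeat protein found with type I myosins, had 50.7 against 114 with InP/ZnS. YMR034C (Rch1) limits cytosolic calcium and had 46.0 FPKM against 103, and YCR075W-A (Ego2, of the nutrient-sensing EGO complex at the vacuole) 61.5 against 110. YGR054W, the initiation factor eIF2A, had 49.1 against 103, and YNR064C, an epoxide hydrolase, 24.6 against 53.5.

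In 2 pairs of neighbouring frames that are parts of a split gene, both parts were lower. YMR084W and YMR085W lie 74 bp apart and form a single gene in related strains. YMR084W had 38.4 FPKM with InP/ZnS against 110 untreated, and YMR085W 78.2 against 184. YOL163W and YOL162W lie 12 bp apart and are remnants of a sulfonate transporter gene. YOL163W had 75.8 FPKM with InP/ZnS against 242 untreated, and YOL162W 18.3 against 45.9. Frames this close are not counted as independent observations. YOR385W, of unknown function, had the lowest ratio among lower members with q under 0.05 in the authors' deposited table, 308 FPKM with InP/ZnS against 1175 untreated (log2 -1.93). YIL100W, which has no RefSeq entry, had 12.9 against 47.4 and shares its locus with another entry in the CdSe/ZnS table.

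The members lay on all 16 chromosomes, and 18 pairs of members were within 5000 bp of each other. Of these pairs, 9 were both higher, 4 both lower and 5 mixed. The split genes YMR084W with YMR085W and YOL163W with YOL162W are among the pairs both lower. Such pairs were not counted in the list or over all tested entries, so no clustering is read from them. Within 30 kb of a chromosome end lay 15 of 96 higher members (15.6%) and 7 of 53 lower members (13.2%), against 10.5% of the list and 5.09% of all tested entries. YFL052W and YFL054C (chromosome VI, 28232 to 29629 and 20847 to 22787), YML131W (chromosome XIII, 10198 to 11295) and YOL163W (chromosome XV, 9597 to 10106) were among these. Unnamed frames as a whole are more often near the ends than other genes, and the difference between the members and the list was not tested.

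Members without a low q were nearly all short. Of the 34 members without q under 0.05 in the authors' deposited table (16 higher, 18 lower), 33 were at most 300 bp long and the longest had 315 bp. Of members up to 300 bp, 12 of 45 had q under 0.05, against 46 of 47 over 300 to 900 bp and 57 of 57 over 900 bp. In the list, where no ratio was required, the shares were 18.6%, 36.5% and 52.0%. The members were chosen by the size of the ratio, so nothing is read from their count. The median implied standard error was 0.952 in the 34 and 0.253 in the other 115 members. The implied error and the deposited q disagreed for many members, in both directions. The implied error is thus not the error behind the authors' calls and is only a rough guide. YNR075C-A (93 bp), YGL006W-A (111 bp) and YMR272W-B (108 bp) had implied standard errors of 0.019, 0.048 and 0.073, while the authors' deposited table gave them q of 0.630, 0.413 and 0.771. YLR285C-A (171 bp) had a log2 ratio of -2.66 and an implied standard error of 0.77, with a deposited q of 0.36. Other members differed the other way, with a lower q than the implied error would give. With CdSe/ZnS, YMR007W (381 bp) had a log2 ratio of 0.54, an implied standard error of 0.35 and a deposited q of 0.0333. With InP/ZnS, YDR010C (333 bp) had 0.98, 0.57 and 0.0128, and YCR075W-A (228 bp) had -0.84, 0.50 and 0.0213. YCR095W-A, of 159 bp, had the largest ratio of all, 98.5 FPKM with InP/ZnS against 12.8 untreated (log2 2.95), and a q of 0.237. YER091C-A, of 222 bp and without a RefSeq entry, had the lowest, 1.49 FPKM with InP/ZnS against 12.4 untreated (log2 -3.07), and a q of 0.249. YGL006W-A, of 111 bp, had 72.6 FPKM with InP/ZnS against 298 untreated, and YLR264C-A, of 117 bp, 145 against 491. YOL038C-A, of 96 bp, had 1050 against 2904. All 3 are uncharacterized frames and missed the authors' threshold with both dots. Reads under 80 bp had been dropped by the authors, and the effect of that step on frames of this size was not tested.

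**Figure D3:**
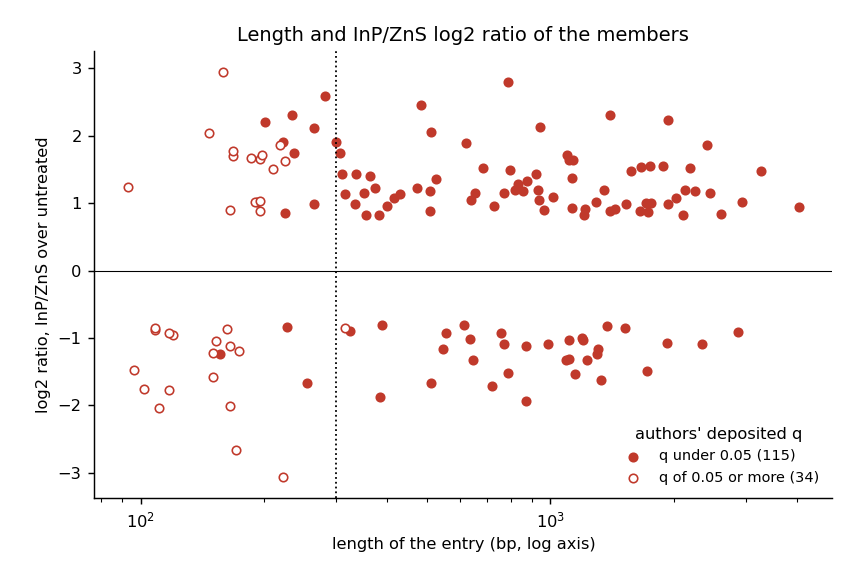
Log2 ratio of InP/ZnS over untreated FPKM (vertical axis) against entry length in bp (log axis) for the 149 members, with 115 filled points at q under 0.05 in the authors' deposited table and 34 open points at higher q. Nearly all open points lie left of the dotted line at 300 bp, among them the highest and the lowest ratio.

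At the edge of the rule, YBR016W (-0.80), YNL190W (-0.81), YDL233W (-0.82), YKL162C (0.82) and YGR266W (0.82) stood just inside the log2 limit. YJL160C and YJL077W-B (both -0.80, short of the limit before rounding) and YER121W, YPR003C and YCR025C (each 0.79) stood just outside. YBR016W had 1392 FPKM with InP/ZnS against 2431 untreated and YJL160C 134 against 234. YJL077W-B had 558 against 970 FPKM, YER121W 21.0 against 12.1, YPR003C 52.0 against 30.0 and YCR025C 37.2 against 21.4. The limit thus separates YBR016W from YJL160C by less than the implied standard error of YBR016W, 0.24 from the authors' deposited table. On the higher side YKL162C, annotated as an arginine methyltransferase, had 16.7 FPKM with InP/ZnS against 9.44 untreated, and YGR266W, of the mitochondrial outer and plasma membranes, 66.7 against 37.7.

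The same reading frames were then read in the CdSe/ZnS table. The series lists a single set of untreated libraries, so the ratios with the different dots share the untreated cells, and the values are given side by side without a measure of likeness. All 144 members found there had been tested, and 5 lower members are not analysed here for CdSe/ZnS. The authors' deposited table called 41 members higher and 40 lower with CdSe/ZnS at q under 0.05, against 9.59% of all 6321 tested entries higher and 43.6% lower. The list of unnamed frames had 11.8% higher and 36.1% lower of 790. The median log2 ratio of all entries was -0.35 in this table, so ratios are also given relative to it.

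Of the 96 higher members, 41 (42.7%) were called higher with CdSe/ZnS, 5 (5.21%) lower and 50 were not called, with a median log2 ratio of 0.50, or 0.85 relative to all entries. Of the 48 lower members in this table, 35 (72.9%) were called lower, 0 higher and 13 were not called, with a median of -1.70, or -1.35 relative to all entries. The 13 not called also lacked a q under 0.05 with InP/ZnS, and the 35 lower members with such a q were all called lower. Of the 80 higher members with such a q, 41 were called higher with CdSe/ZnS, 5 lower and 34 were not called. Because the untreated cells are shared, these counts are not independent of the choice of members. With a normal test on the implied standard errors, relative to the median of all entries and adjusted by Benjamini-Hochberg over the whole table, 41 members were higher and 33 lower. These include 4 members without q under 0.05 in the authors' deposited table, YKL100C and YJL163C and the short frames YNL067W-A (147 bp, q 0.272) and YLR264C-A (117 bp, q 0.264), for which the implied standard error and the deposited q disagree. The normal test rests on the implied error and shares its limits.

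**Figure D4:**
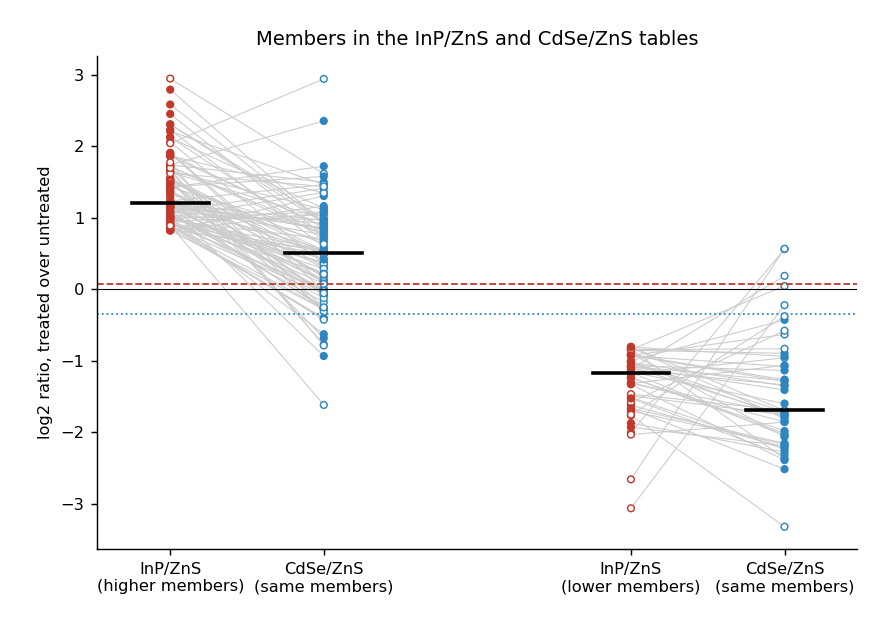
Log2 ratio of treated over untreated FPKM (vertical axis) of the 144 members in both tables, for the 96 higher members (left) and the 48 lower members (right), with InP/ZnS in red and CdSe/ZnS in blue. Filled points have q under 0.05 in the authors' deposited table, grey lines join the values of a member, black bars are medians (0.50 for higher and -1.70 for lower members with CdSe/ZnS), and the dashed red and dotted blue lines are the medians of all tested entries, 0.07 and -0.35.

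The largest increases with CdSe/ZnS among calls of the smallest q were those of YKR104W, YMR320W, YDR119W-A, YLR413W and YKR015C. YKR104W, a fragment of a drug-resistance transporter gene interrupted by a stop codon in S288C, had 11.3 FPKM with CdSe/ZnS against 3.77 untreated (log2 1.58, implied standard error 0.46 from the authors' deposited table). YMR320W, of unknown function and near the end of chromosome XIII, had 185 FPKM against 65.5 with CdSe/ZnS and 277 against 82.8 with InP/ZnS. YLR413W (Ina1, a paralog of FAT3) had 41.7 against 15.6, and YKR015C, of unknown function, 24.2 against 9.45. YOR192C-C, a frame of 237 bp identified by mass spectrometry, had 79.7 FPKM with CdSe/ZnS against 15.6 untreated (log2 2.36, implied standard error 0.84 from the authors' deposited table).

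Among the lower members the lowest CdSe/ZnS ratios with the smallest q were those of YOL163W, YHR097C, YPL014W, YIL100W and YMR084W. YOL163W had 36.8 FPKM with CdSe/ZnS against 210 untreated (log2 -2.52, or -2.17 relative to all entries). YPL014W (Cip1) had 31.7 against 158, a log2 ratio of -2.32 and of -1.98 relative to all entries. YMR084W had 20.8 against 98.3, and its neighbour YMR085W 43.4 against 172. YOR385W had 241 against 1101 FPKM, and YER130C (Com2) 26.3 against 122.

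Called in opposite directions in the authors' deposited tables were 5 members, all higher with InP/ZnS and lower with CdSe/ZnS. They were 5.21% of the 96 higher members, while 43.6% of all tested entries were called lower with CdSe/ZnS. YJL144W (Roq1) had 3567 FPKM with InP/ZnS against 1623 untreated, and 700 FPKM with CdSe/ZnS against 1337 untreated. YMR090W, related to sugar-nucleotide dehydratases, had 370 against 129 with InP/ZnS and 70.1 against 113 with CdSe/ZnS. YLR345W, similar to the kinase that makes fructose 2,6-bisphosphate, had 159 against 80.3 and 43.9 against 67.9. YBL086C, a protein at the cell periphery, had 233 against 126 with InP/ZnS and 82.6 against 110 with CdSe/ZnS. YJL133C-A (Dpi8) had 9809 against 5412 and 3332 against 4412. Relative to the median of all entries, the CdSe/ZnS log2 ratios were -0.59 for YJL144W, -0.34 for YMR090W, -0.28 for YLR345W and -0.06 for both YBL086C and YJL133C-A. In the normal test relative to that median only YJL144W remained lower past the threshold, and the other 4 did not pass it.

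At the other extreme, YLR285C-A, YER091C-A, YER175W-A, YOR008W-B and YER078W-A, all of at most 222 bp, were lower with InP/ZnS and much closer to untreated cells, or above them, with CdSe/ZnS. YLR285C-A had 6.66 FPKM with InP/ZnS against 42.1 untreated, and 73.4 with CdSe/ZnS against 49.5. YER175W-A had 9.40 against 37.8 with InP/ZnS and 54.8 against 37.2 with CdSe/ZnS. Both are uncharacterized frames identified by homology and expression. YOR008W-B had 110 against 370 with InP/ZnS and 109 against 141 with CdSe/ZnS, and YER078W-A 18.2 against 39.5 and 50.8 against 44.6. YER091C-A, the member with the lowest ratio, had 7.57 FPKM with CdSe/ZnS against 8.83 untreated. None of these 5 had q under 0.05 in either of the authors' deposited tables. The short frames YOR394C-A, YIL046W-A and YAL016C-B were apart in the reverse direction, likewise with no such q. YOR394C-A had 63.5 FPKM with InP/ZnS against 18.6 untreated and 16.6 with CdSe/ZnS against 28.7, YIL046W-A 34.9 against 18.7 and 5.34 against 16.4, and YAL016C-B 24.0 against 7.52 and 11.6 against 19.8.

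The untreated cells, quantified in both tables from the same libraries, show how far a pooled FPKM differed between the quantifications. This is no spread over libraries or cultures. The untreated level of the InP/ZnS table entered the choice of members. The spread over members may therefore exceed that over other frames, which was not tested. Over 104 members longer than 300 bp, the untreated FPKM of the CdSe/ZnS table was 0.698 to 1.35 times that of the InP/ZnS table, with a median of 0.872. Over 40 members of up to 300 bp the range was 0.382 to 2.64, with a median of 0.888. The median over all 5742 tested entries at the floor was 0.876, so a common scale separates the tables and levels are compared only within a table. YAL016C-B, at 19.8 against 7.52 FPKM untreated in the CdSe/ZnS and InP/ZnS tables, differed by 1.40 on the log2 scale between the quantifications of the same cells.

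**Figure D5:**
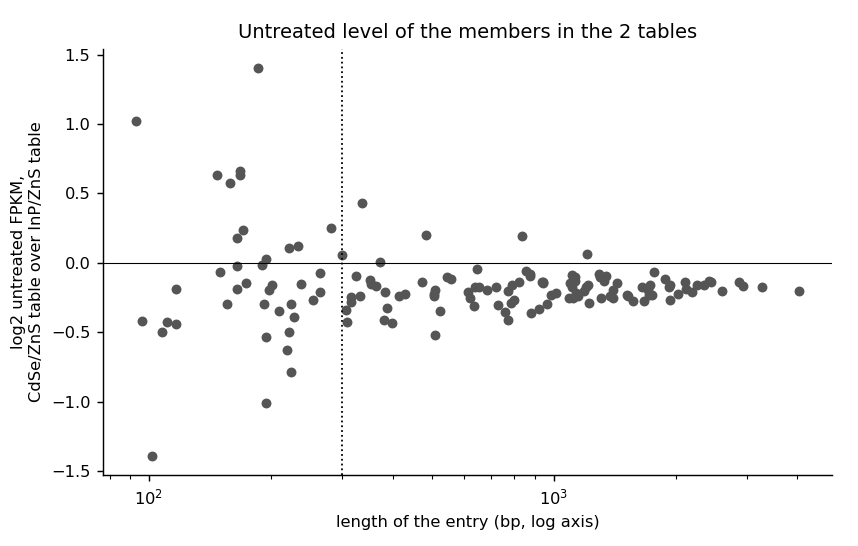
Log2 ratio of the untreated FPKM in the CdSe/ZnS table over that in the InP/ZnS table (vertical axis) against entry length in bp (log axis) for 144 members. Points right of the dotted line at 300 bp lie between -0.52 and 0.43, and those left of it between -1.39 and 1.40.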

How the data were processed

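Poly(A) RNA was sequenced from 3 libraries per condition, per the labels' protocols. Per the deposited text sheets, the authors worked in Galaxy, removed bases below a quality of 20, trimmed 12 bases at the 5′ end, dropped reads under 80 bp and used the S288C genome from SGD. The tools were TopHat and Cuffdiff, per the submitters' processing notes. Not given in the sources used here are their versions, strand settings and normalization. The authors deposited 1 FPKM per entry and condition, with a log2 fold change, a test score, a p-value and a q-value, per the file headers. Which column is the treated condition was read from the authors' lists of higher and lower genes (1522 and 1096 entries for InP/ZnS, 606 and 2759 for CdSe/ZnS). The libraries are pooled in these values, so the depth is unknown and no test over libraries, no replicate left out and no replicate block could be had. 4 entries per table were emptied and are not analysed here.

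Log2 ratios were computed from the deposited FPKM without a pseudocount with Python 3.11.15, pandas 2.3.3, numpy 2.4.6 and scipy 1.17.1. They matched the deposited log2 fold changes of the members. Calls are the authors' deposited q under 0.05. An implied standard error is the deposited log2 fold change over the deposited test score. It disagreed with the deposited q for many members and is only a rough guide. A 2-sided normal test on it, with Benjamini-Hochberg adjustment over the whole table, was an alternative. Coordinates start from 1, and 99.8% of 5097 tested entries alone at their locus and in RefSeq had the same start and end in assembly R64.

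Values per condition are given by rule for the 10 members with the largest absolute InP/ZnS ratios in each direction, the 5 of highest FPKM, the 5 frames on each side of the ratio limit, the 5 largest CdSe/ZnS changes of smallest q in each direction and the 5 largest gaps between the dots in each direction. Other members are named for their annotated role and were chosen after their values were seen. The members, lists and words were chosen with earlier results of these data known. Protein sequences were not used here.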

Additional observations from a re-analysis of the deposited data

Results flagged for a closer look

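In 5 reading frames the effect of InP/ZnS and that of CdSe/ZnS went opposite ways past the authors' threshold, higher with InP/ZnS and lower with CdSe/ZnS, each against the same untreated libraries. These were 5.21% of the 96 higher members, while 43.6% of all tested entries were called lower with CdSe/ZnS. The share of all tested entries called in opposite directions is not given here. The difference of the log2 ratios, InP/ZnS minus CdSe/ZnS, was 2.20 for YMR090W, a relative of sugar-nucleotide dehydratases, and 2.07 for YJL144W, which encodes the ubiquitin-ligase regulator Roq1. It was 1.61 for YLR345W, a relative of phosphofructokinases that make a glycolytic signal, 1.30 for YBL086C, a protein of the cell periphery, and 1.26 for YJL133C-A, which encodes the putative mitochondrial protein Dpi8. None of these differences was tested. The doses of the dots differ, and the median log2 ratio of all tested entries was 0.07 with InP/ZnS and -0.35 with CdSe/ZnS. Relative to that median the CdSe/ZnS log2 ratio was -0.59 for YJL144W, -0.34 for YMR090W, -0.28 for YLR345W and -0.06 for YBL086C and YJL133C-A. Of the 5, only YJL144W was lower past the threshold in the normal test relative to the median.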

How the results depend on the processing

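The counts reported were 96 members higher and 53 lower with InP/ZnS, and 41 called higher and 40 called lower with CdSe/ZnS. Of 44 alternative values, 35 stayed within 1.5 times of these. They ran over 71 to 123 members higher and 38 to 67 lower with InP/ZnS, and over 30 to 46 called higher and 28 to 46 called lower with CdSe/ZnS. The alternatives were floors of 1 and 30 FPKM, other ratio limits, a pseudocount of 1, ratios relative to the median of all entries, a q under 0.01, the names set aside put back, entries at shared loci admitted, and the normal test. A log2 limit of 0.5 gave 196 members higher and 91 lower with InP/ZnS, and 63 called higher and 87 called lower with CdSe/ZnS. Admitting entries that share a locus gave 165 higher and 118 lower with InP/ZnS, and 67 called lower with CdSe/ZnS. In 2 alternatives chosen after seeing the data, 35 members were lower with InP/ZnS where the authors' q under 0.05 was also required, and 33 where frames had to be longer than 300 bp. Each of these moves follows from the construction of the alternative, which admits or removes entries.

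No paired analysis was possible because the tables hold 1 value per condition over the pooled libraries, and leaving out each replicate was not run for the same reason. The depth is unknown. Of the 45 members of up to 300 bp, 33 had no q under 0.05 in the authors' deposited table, and the cause was not tested.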
